A study of Mus musculus with 2 samples.

Results

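The probes of 9 genes for globins and heme synthesis were followed on 2 arrays of LSK cells, 1 for nondiabetic mice and 1 for mice made diabetic with streptozotocin (STZ-DM). The genes were Hba-a1 and Hbb-b1, for the alpha and beta chains of adult hemoglobin, and Alas2, Alad, Uros, Urod, Cpox, Ppox and Fech, for 7 enzymes of heme synthesis. They were chosen by gene name, with earlier results of these same arrays known, so the same intensities and ratios informed the choice and are given here as a description, with no test. The arrays held 11 probes for these 9 genes, out of 55681 probes and 21360 named genes, and 10 of the 11 probes were well above background on both arrays by the flag of the scanner software.

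The name LSK stands for bone marrow cells negative for a panel of lineage markers and positive for Sca-1 and c-kit, among which are the hematopoietic stem cells and early progenitors. Each array was hybridized with amplified, Cy3-labelled material from 8.3 ng of total RNA, and the labels give 3 C57BL/6J mice for each. STZ is a toxin taken up by insulin-producing cells, and the study's methods describe an injection of STZ into the tail vein, with citrate buffer for the controls. The labels call the mice of both arrays female, whereas the text of the study describes male mice, and the age of the mice on the arrays is not given in the sources used here. Each condition has 1 array, so no difference below has a replicate check or a p-value. An error printed after an intensity or a log2 ratio is the scanner software's own estimate for that spot, which does not cover how mice, cell sorts or amplifications vary.

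Hemoglobin carries oxygen in red blood cells and is built from alpha and beta chains, each holding 1 heme. Heme synthesis starts in mitochondria, where an aminolevulinate synthase (Alas1 in most cells, Alas2 in erythroid cells) joins glycine and succinyl-CoA. It goes on in the cytosol, where Alad, Uros and Urod act, and returns to mitochondria for Cpox, Ppox and Fech, the last of which puts iron into the ring. Erythroid cells carry the pathway at high activity, but every cell with respiratory enzymes needs some heme. Mature erythroid cells carry the surface marker Ter119, which lineage panels for LSK sorting target.

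The 250 bases before the start of 4 of these genes are shown, since Hba-a1, Cpox and Urod were among the genes at least 2-fold higher and Alas2 is the erythroid enzyme of the pathway. The sequences are those of RefSeq, assembly GRCm38.p6, and were matched by symbol, which gave 9 windows for 7 of the 9 genes. Fech and Hbb-b1 had no entry. Capitals mark GATA, CACCC and CCAAT on either strand, so that the opposite strand reads TATC, GGGTG and ATTGG. These are the letters that GATA factors, factors of the Klf family and CCAAT-binding factors are known to recognize.
Hba-a1 (chr11:32283422-32283671, plus strand): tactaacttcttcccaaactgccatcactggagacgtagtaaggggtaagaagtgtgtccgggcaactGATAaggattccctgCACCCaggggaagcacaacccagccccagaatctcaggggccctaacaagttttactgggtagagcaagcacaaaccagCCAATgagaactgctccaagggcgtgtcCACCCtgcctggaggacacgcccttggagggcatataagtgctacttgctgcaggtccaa
Alas2 (chrX:150547167-150547416, plus strand): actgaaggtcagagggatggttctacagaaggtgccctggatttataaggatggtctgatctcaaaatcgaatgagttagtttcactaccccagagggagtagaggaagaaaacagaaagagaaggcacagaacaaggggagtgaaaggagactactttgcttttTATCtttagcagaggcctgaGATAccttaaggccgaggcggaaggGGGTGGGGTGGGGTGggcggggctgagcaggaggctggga
Cpox (chr16:58669958-58670207, plus strand): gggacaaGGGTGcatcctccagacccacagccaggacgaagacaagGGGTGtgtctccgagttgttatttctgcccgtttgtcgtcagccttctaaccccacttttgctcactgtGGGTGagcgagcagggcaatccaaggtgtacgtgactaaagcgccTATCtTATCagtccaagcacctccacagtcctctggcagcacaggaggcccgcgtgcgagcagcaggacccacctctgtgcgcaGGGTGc
Urod (chr4:116994414-116994663, minus strand): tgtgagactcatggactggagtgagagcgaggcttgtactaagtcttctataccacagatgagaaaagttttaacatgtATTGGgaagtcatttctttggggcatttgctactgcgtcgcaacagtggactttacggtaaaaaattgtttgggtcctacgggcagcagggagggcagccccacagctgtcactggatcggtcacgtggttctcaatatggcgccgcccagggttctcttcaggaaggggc

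The Hba-a1 window held 1 GATA, 2 CACCC and 1 CCAAT, and the Alas2 window held 2 GATA and 3 CACCC. Cpox had 2 GATA and 4 CACCC, and Urod had 1 CCAAT only. Of all 32851 windows of the same length, 53.6% held GATA, 52.0% held CACCC and 33.8% held CCAAT, so a match in 1 window is a common feature. The Hba-a1 and Hba-a2 windows were identical over the 247 bases they share once set 3 bases apart. Alpha-globin copies this close may also share probe signal, and how far the probes of Hba-a1 and Hba-a2 tell them apart was not tested.

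Compared with nondiabetic mice, 5 of the 10 measured probes of these genes were higher by 2-fold or more in LSK cells of diabetic mice, 1 was lower by as much and 4 lay within 2-fold. The higher ones were Urod, Fech, Hba-a1, Hbb-b1 and Cpox, and the lower one was a probe of Alad. Over all 32506 probes measured on both arrays, 8.96% passed 2-fold upwards and 9.12% downwards, and nothing is read from the difference in shares, since the genes were chosen with these arrays in view. By 1 probe for each gene, the median log2 ratio of diabetic over nondiabetic was 1.02 for the 9 genes, beside 0.01 for all 13467 named genes measured on both arrays. Among those genes, 9.44% passed 2-fold upwards and 8.44% downwards. Ratios were computed after each array was scaled to its 75th percentile, an intensity of 168 on the nondiabetic and 182 on the diabetic array, while intensities are given before scaling. With normexp background correction, which adds an offset of 50 to each intensity, the counts were 2 higher (Hba-a1 and Urod) and 0 lower.

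**Figure D1:**
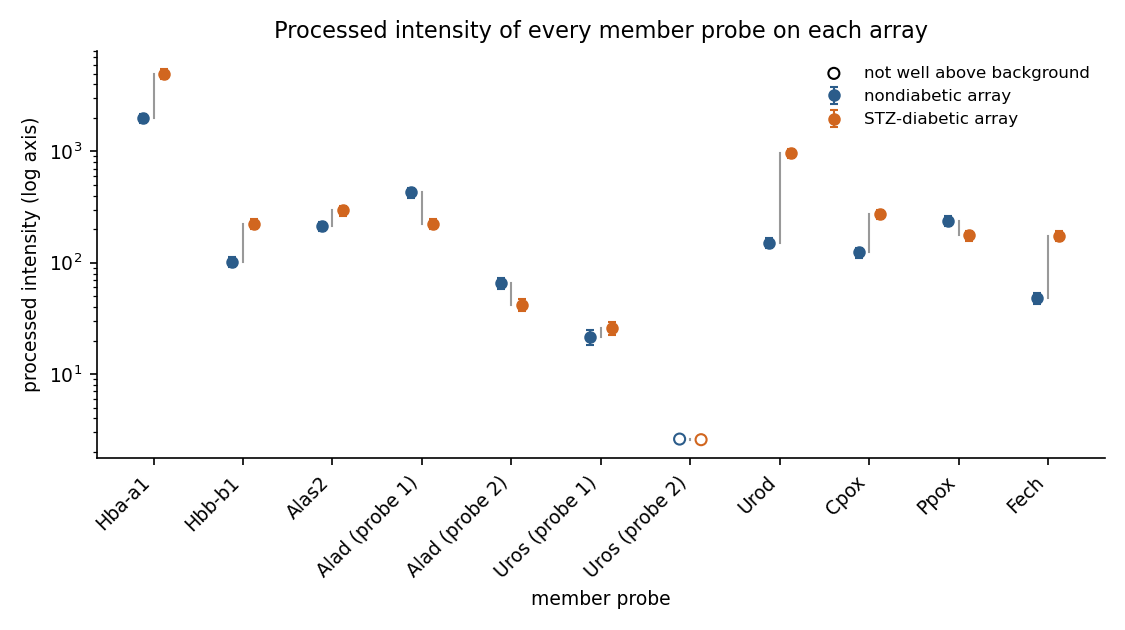
Processed intensity (log axis) of each of the 11 probes on the nondiabetic and the STZ-diabetic array, with bars for the software's spot error and open circles for probes not well above background. Urod, Fech and Hba-a1 show the widest gaps, and the second Uros probe is at 2.61 and 2.57 on the arrays.

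The probes of both globin genes had higher signals in diabetic LSK cells. Hba-a1, which encodes an alpha chain of adult hemoglobin, read 1984 ± 198 on the nondiabetic and 4967 ± 497 on the diabetic array. The log2 ratio of its probe (A_55_P1962303, transcript NM_008218) was 1.21 ± 0.20, or 2.31-fold. Hbb-b1 (probe A_55_P2108151), which encodes a beta chain, read 102 ± 10.5 on the nondiabetic and 225 ± 22.6 on the diabetic array, a log2 ratio of 1.02 ± 0.21. Its ratio was among those closest to the 2-fold limit, a log2 ratio of 1. Hbb-b1 and Hbb-b2 are the names of the beta-globin genes of the diffuse haplotype, and C57BL/6J mice carry the single haplotype with Hbb-bs and Hbb-bt. What the probes named for Hbb-b1 and Hbb-b2 bind in this strain was therefore not tested.

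Further globin probes are named for the same chains. Hba-a2 (A_55_P1962299), the neighbouring alpha-globin copy, went from 1443 to 3281, a log2 ratio of 1.07. Hbb-bt (A_55_P1973809), a beta-globin gene of this strain, went from 923 to 1681, a log2 ratio of 0.75, within 2-fold. Hbb-b2 (A_55_P2038540) went from 92.1 to 222, a log2 ratio of 1.15. All 5 probes named for adult alpha and beta chains, the 2 among the chosen genes included, were higher in diabetic LSK cells. Of them, 4 were past 2-fold. How far these probes share signal was not tested, so they may not be separate readings. Their direction was the same under every alternative tried, but with normexp only those of Hba-a1 and Hba-a2 were past 2-fold, with Hbb-b2 at 0.79.

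Most probes of the embryonic and other minor globins were dim. Hba-x, an embryonic alpha-like globin, was at 2.47 and 2.79 and Hbb-bh1 at 5.91 and 7.17, below the detection flag on both arrays. The probe of Hbq1a (2.10 and 5.19) was also dim on both arrays. Hbq1b was flagged as detected on the nondiabetic array alone (15.2 and 12.2), with a log2 ratio of -0.43 ± 0.44, which is smaller than its error. Of the 2 probes of Hbb-y, an embryonic beta-like globin, 1 was dim on both arrays (2.63 and 2.42). The other (A_55_P1967481) was well above background in diabetic LSK cells only, with 7.57 and 25.9, which makes it at least 2.34-fold higher. Such a bound is taken against the lowest intensity well above background on the dim array (10.2 on the nondiabetic and 10.1 on the diabetic array). Hbb-bh2 was measured on both arrays by 1 of its probes, which read 35.1 and 28.6, a log2 ratio of -0.41. Among the globins outside red blood cells, Cygb, which encodes cytoglobin, went from 193 to 13.9, a log2 ratio of -3.91 (-1.86 with normexp). Mb (2.04 and 3.39) and the 2 probes of Ngb were well above background on neither array.

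The enzymes of heme synthesis differed in direction. Alas2, the first and rate-limiting enzyme in erythroid cells, read 213 ± 21.4 on the nondiabetic and 295 ± 29.6 on the diabetic array. Its log2 ratio was 0.35 ± 0.20 (probe A_51_P327451), within 2-fold. Alad, which joins a pair of aminolevulinate molecules to porphobilinogen, was lower in diabetic LSK cells by both of its probes. The first probe (A_55_P2037737) went from 428 ± 42.8 to 223 ± 22.4, a log2 ratio of -1.06 ± 0.20. The second probe (A_55_P1955072) went from 65.1 ± 7.05 to 41.9 ± 4.95, a log2 ratio of -0.75 ± 0.23, which lies within 2-fold. Alad was the only one of the 9 genes with 2 probes measured on both arrays, and their signs were the same.

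Uros, which closes the ring to uroporphyrinogen, was dim and close between the arrays. Its first probe (A_55_P2001871) read 21.6 ± 3.28 and then 26.0 ± 3.53 with diabetes, a log2 ratio of 0.15 ± 0.29 that is smaller than its error. Its second probe (A_55_P2175356), for another transcript, was well above background on neither array.

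Urod, which removes carboxyl groups from uroporphyrinogen, had the largest ratio of the 9 genes. Its probe read 150.2 ± 15.3 on the nondiabetic and 965 ± 96.5 on the diabetic array, a log2 ratio of 2.57 ± 0.21, or 5.92-fold (probe A_51_P282092). Cpox, which makes protoporphyrinogen, went from 124 ± 12.5 to 272 ± 27.3, a log2 ratio of 1.02 ± 0.21 (probe A_51_P257258). Like Hbb-b1, Cpox lay just past the 2-fold limit, by less than its error. Ppox, which oxidizes protoporphyrinogen, went the other way from its neighbours in the pathway, from 237 ± 23.8 to 176 ± 17.7, a log2 ratio of -0.54 ± 0.21 (probe A_51_P310949) and within 2-fold.

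Fech, the ferrochelatase that completes heme, read 48.3 ± 5.38 on the nondiabetic and 175 ± 17.6 on the diabetic array. This is a log2 ratio of 1.74 ± 0.22, or 3.34-fold (probe A_55_P2042146). Of the 7 enzymes, 3 were at least 2-fold higher, 1 was at least 2-fold lower and 3 lay within 2-fold, with a median log2 ratio of 0.35. Urod, Cpox, Fech and both globin genes rest on 1 probe printed as 1 spot each.

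**Figure D2:**
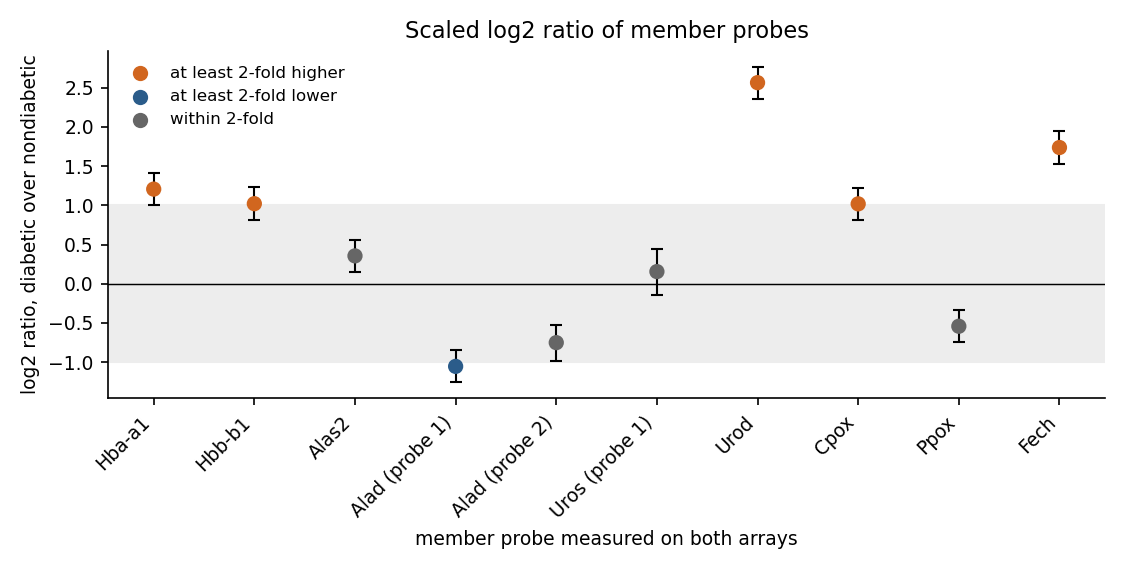
Scaled log2 ratio of diabetic over nondiabetic LSK cells for the 10 probes measured on both arrays, in the order globins then steps of heme synthesis, with bars for the software's spot error and a grey band for less than 2-fold. Urod at 2.57 and Fech at 1.74 lie above the band by more than their error bars, and Hbb-b1 and Cpox lie at its upper edge.

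How often probes passed 2-fold differed with brightness. With all probes measured on both arrays put into 3 groups of equal size by intensity, 10.8% of the dimmest, 12.1% of the middle and 3.92% of the brightest passed 2-fold upwards. Downwards, the shares were 12.0%, 11.9% and 3.45%. Hba-a1, Urod and the first probe of Alad were in the brightest group, Hbb-b1, Alas2, Cpox, Ppox and Fech in the middle and the first Uros probe and the second Alad probe in the dimmest. Among 237 probes printed at least 5 times, the median SD of the log2 ratio over a probe's spots was 0.25 in the dimmest, 0.13 in the middle and 0.07 in the brightest group. This spread between spots does not include the spread between mice.

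**Figure D3:**
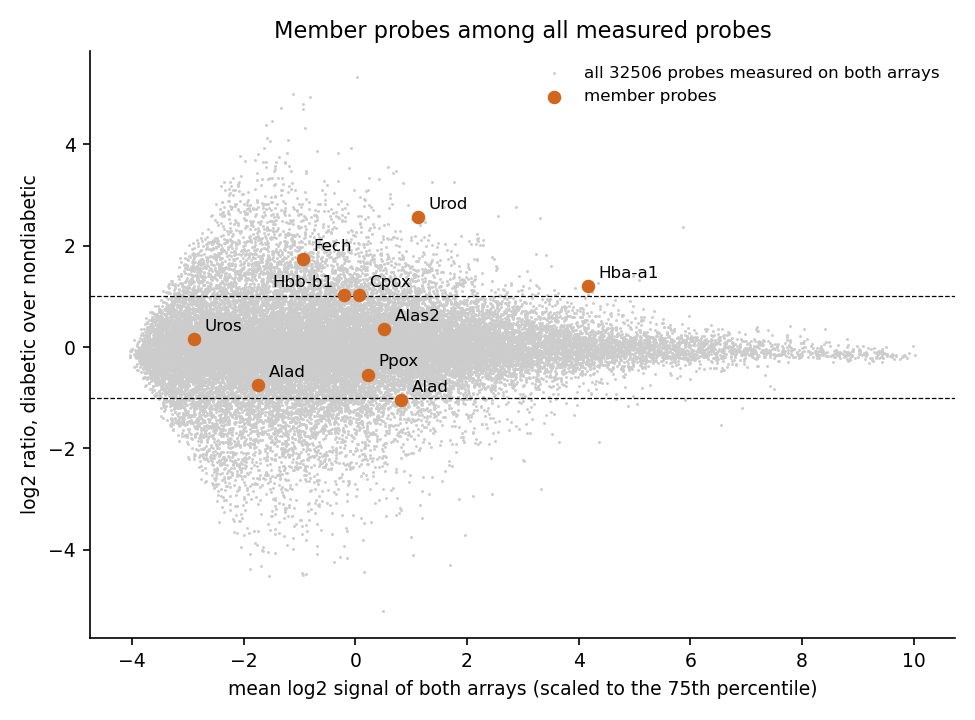
Log2 ratio against the mean scaled log2 signal of both arrays for all 32506 probes measured on both (grey) and the 10 measured probes of the globin and heme synthesis genes (orange), with dashed lines at 2-fold. Hba-a1 lies where few grey points pass 2-fold, whereas Fech, Hbb-b1 and Cpox lie where many do.

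Other globins, erythroid regulators and genes that supply heme synthesis or handle its product were read from 7 lists of 75 genes. Of the 75, 72 had a named probe and 62 were measured on both arrays by their brightest probe. Of these 62 genes, 7 were past 2-fold upwards in diabetic LSK cells, 4 past 2-fold downwards and 51 within 2-fold, and the median log2 ratio was 0.04. Over all named genes measured on both arrays, 9.44% passed 2-fold upwards and 8.44% downwards, and nothing is read from the list counts. With normexp, 3 of those 7 (Hba-a2, Slc48a1 and Bach2) and 2 of those 4 (Cygb and Glrx5) were still past 2-fold. Hbb-bs, Hbb-bh0 and Ahsp had no named probe.

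Among 20 genes of heme and iron transport, 1 was at least 2-fold higher, 1 was at least 2-fold lower and 16 lay within 2-fold. Slc48a1, which moves heme out of endosomes and lysosomes, went from 142 to 890.5, a log2 ratio of 2.53. Abcb6, a porphyrin transporter, went from 72.3 to 19.9, a log2 ratio of -1.98. The mitochondrial iron importer Slc25a37 (mitoferrin) had log2 ratios of 0.89 and 0.16 by its 2 probes and its relative Slc25a28 one of -0.73. Tfrc, the transferrin receptor, had a log2 ratio of 0.14 by a probe printed 10 times, 0.08 by another and 2.05 by the remaining one. Slc11a2 had -0.17 by its brightest probe and was at least 2.47-fold lower by its other probe (22.9 and 5.50). The ferritin chain Fth1, the brightest of the list with 5997 and 5879, had a log2 ratio of -0.15, and Slc40a1, the iron exporter ferroportin, was at least 1.49-fold lower.

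Of 10 genes for iron-sulfur clusters, which share mitochondrial iron with heme, Iscu (1.76) and Isca1 (1.30) had log2 ratios past 2-fold upwards. Glrx5 (2038 to 1102) was 2.01-fold lower. With normexp, Iscu came to 0.86 and Isca1 to 0.67, and with centring on the median ratio Glrx5 came to -0.98, all within 2-fold. The second probe of Isca1 was at least 2.26-fold lower. Among 10 genes of heme breakdown and sensing, Blvrb, a biliverdin reductase, went from 16.3 to 76.7, a log2 ratio of 2.12 (0.74 with normexp). Bach2 had 1.52 by its brightest probe and -0.40 by the other. Hmox1, the inducible heme oxygenase, had 0.04 by its brightest probe and 1.46 by the other, and Hmox2, the brightest gene of the list, had 0.08 and, by its other probe, -0.63. Eif2ak1, the heme-regulated kinase of translation, had -0.15. Alas1, the housekeeping counterpart of Alas2, had log2 ratios of -0.33 and -0.26 by its 2 probes, and Clpx, a mitochondrial chaperone that acts on this enzyme, had -1.47. Hbs1l, the remaining gene, had 0.99 by its brightest probe, -0.03 by another and was at least 1.58-fold lower by the remaining one.

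Of 17 erythroid regulators, 16 were measured on both arrays by their brightest probe, and by that probe 0 of them passed 2-fold in either direction. Zfpm1, a partner of GATA factors, passed it by another probe, which went from 112 to 53.8, a log2 ratio of -1.17 (-0.64 with normexp). Gata1, the erythroid GATA factor, went from 150.3 to 108, a log2 ratio of -0.59. Klf1, the erythroid factor of the CACCC box, was dim at 19.1 and 16.9, a log2 ratio of -0.30, and Epor, the erythropoietin receptor, had -0.20. Tal1 had 0.44, Nfe2 0.49, Myb 0.72 and Lmo2, the brightest of the list, 0.61. Sox6, a repressor of embryonic globin, was well above background in diabetic LSK cells only, with 3.78 and 149, which makes it at least 13.5-fold higher. Zbtb7a had -0.70 by its brightest probe and was at least 3.60-fold lower by the other.

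**Figure D4:**
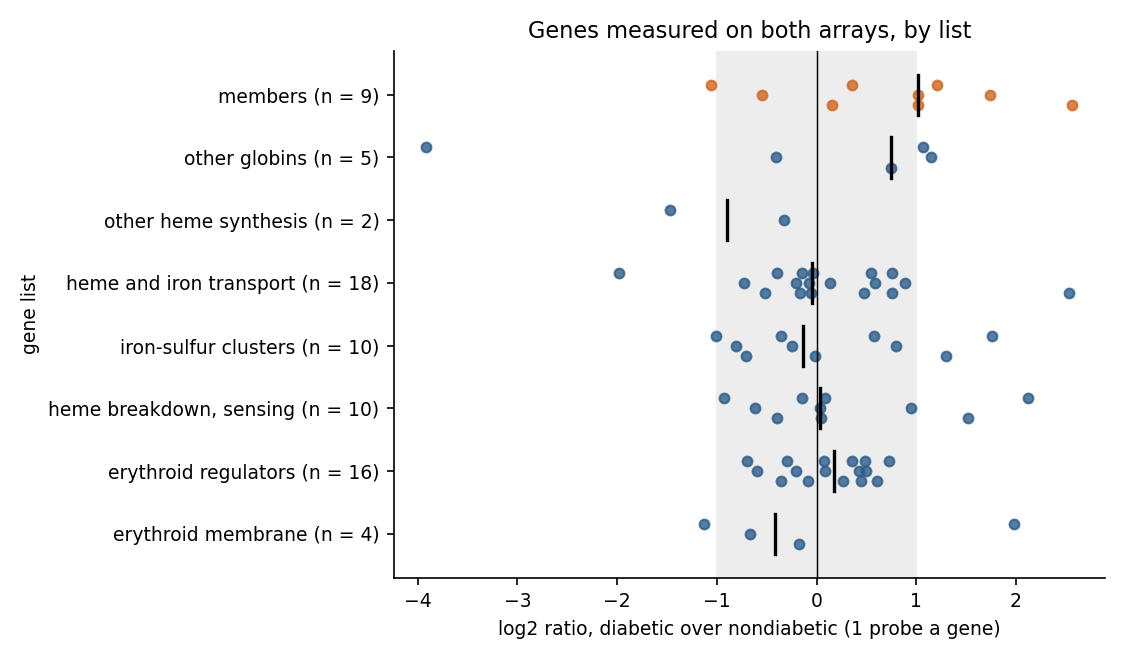
Scaled log2 ratios by 1 probe for each gene measured on both arrays, by gene list, with black bars for the medians and a grey band for less than 2-fold. The 9 globin and heme synthesis genes have a median of 1.02, whereas the brightest probes of the 16 erythroid regulators measured on both arrays lie inside the band and Sox6, detected on the diabetic array alone, is not plotted.

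Markers of the sorted cells and of other cells were read beside these values. Kit, the gene of c-kit, had 4635 in nondiabetic and 4735 in diabetic LSK cells, and Ly6a, the gene of Sca-1, had 475 and 701, a log2 ratio of 0.44, so both gate markers were well above background on both arrays. Of 9 genes for the erythroid membrane, 4 were measured on both arrays, 1 was well above background on the nondiabetic array only, 2 on the diabetic array only and 2 on neither. Epb42, the gene of protein 4.2, was at 2.46 on each array, near the median of the 308 negative control spots (2.35 and 2.32). Sptb, the gene of erythroid beta spectrin, was also well above background on neither array (5.23 and 2.16). Slc4a1, the band 3 anion exchanger, went from 124 to 529, a log2 ratio of 1.98. Rhag (2.13 and 15.6) and Rhd (6.66 and 36.0) were higher by at least 1.41-fold and 3.25-fold.

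Other erythroid membrane genes were lower in diabetic LSK cells, and by 1 probe for each gene the 4 measured on both arrays were 1 positive and 3 negative, with a median log2 ratio of -0.42. Icam4 had 448 in nondiabetic LSK cells and 2.41 in diabetic LSK cells, at least 48.3-fold lower. This is 1 spot, and 1 negative control spot of the nondiabetic array read 466, with the next at 10.7. Kel had a log2 ratio of -1.13 and Ank1, the gene of erythroid ankyrin, one of -0.67 (286 to 195). Ermap, the brightest of the list, had probes at -0.17 and -1.52 and another that was at least 2.92-fold higher. Summed over 1 probe a gene, the erythroid membrane list came to an intensity of 4325 on the nondiabetic and 4094 on the diabetic array. Ermap made up most of this sum, and without Ermap it was 900.5 and 796. Icam4 made up 448 of the 900.5 and 2.41 of the 796. Without both genes, the sum was therefore higher on the diabetic array, where Slc4a1 (124 to 529) made up most of it. That direction rests on Slc4a1 alone. With Slc4a1 left out too, the sum was lower on the diabetic array, where Ank1 (286 to 195) made up most of it. In RNA from sorted cells, more cells with globin RNA and more globin RNA in each cell cannot be told apart, and the part of any remaining erythroid cells in the globin values was not tested.

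For the other cell types a sort could hold, the summed intensity went from 649 to 934 for 6 megakaryocyte genes, of which Gp9 was past 2-fold with 1.52 and Pf4 was the brightest. It went from 3651 to 2994 for 7 neutrophil genes (S100a8 at -1.48, Ngp at least 1.51-fold lower, Mpo the brightest at 2731 and 1851, Camp at 0.56, Elane at 0.50 and S100a9 at 0.10), from 213 to 299 for 5 B cell genes (Cd79a at 1.51, Cd79b the brightest) and from 4536 to 3810 for 5 T and NK cell genes, where Cd3g was at least 2.74-fold lower and Nkg7 was the brightest. For 4 macrophage genes it went from 40265 to 39755, with Cd68 at -1.28 and Itgam, the lineage marker CD11b, the brightest at 34686 and 35189. By their other measured probes, Itgam was past 2-fold downwards with log2 ratios of -1.30 (111 to 49.2) and -1.12 (284 to 142), and a probe of Csf1r had -1.17. Adgre1, the gene of F4/80, differed in the other direction, with 0.94 by its brightest probe (15.3 to 31.9) and at least 2.86-fold higher by its other probe (6.88 and 31.6). The brightest gene carried much of several of these sums. Without it, the sum went from 387 to 456 for megakaryocyte, from 920.4 to 1143 for neutrophil, from 111 to 214 for B cell, from 1245 to 1227 for T and NK cell and from 5579 to 4567 for macrophage genes, so that of the neutrophil list turned direction. The other measured probe of Nkg7 had a log2 ratio of 0.87 (103 to 204). The markers well above background on neither array were Ppbp, Ltf, Ebf1 and Cd8a. Of the 10 probes of all marker lists past 2-fold and measured on both arrays, 2 (Slc4a1 and Cd68) were past it with normexp too. The part of these cell types in the globin and heme values was not tested.

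Probes of 1 gene did not always have the same sign. Over the 9 genes and all lists, markers included, 23 genes had several probes measured on both arrays. In 7 of them the probes had opposite signs, and in 7 they were more than 2-fold apart. Alad, at 0.30 between its probes on the log2 scale, was among the closer ones, as were Alas1 and Blvra. For Urod, Cpox, Ppox, Fech, Alas2, Hba-a1 and Hbb-b1, the arrays held 1 named probe each.

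**Figure D5:**
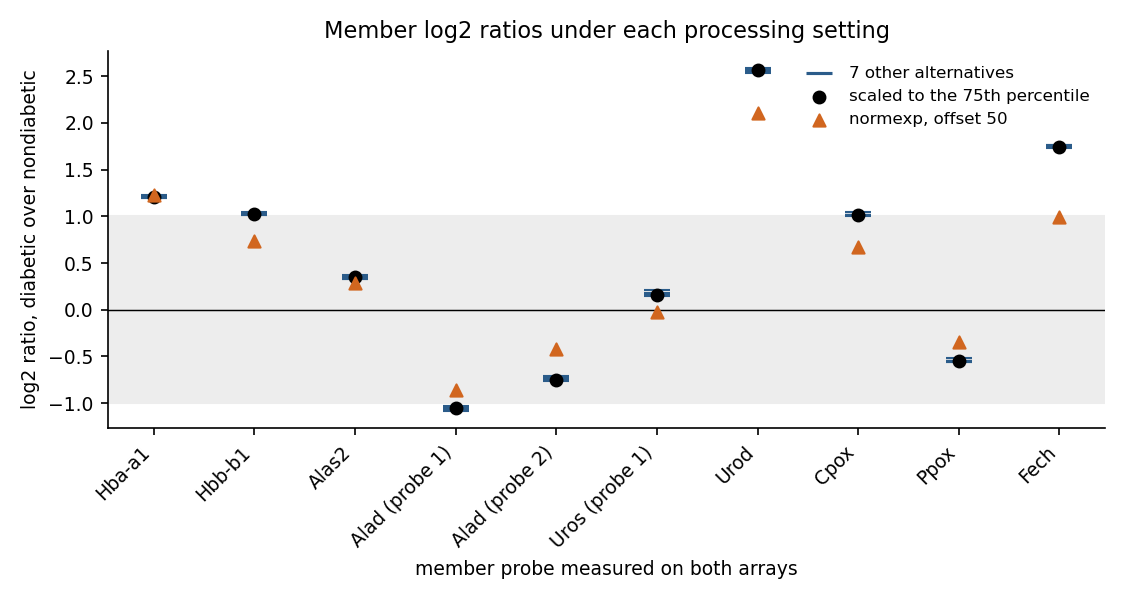
Log2 ratio of each of the 10 measured probes under the scaling used here (black), normexp with an offset of 50 (triangles) and 7 other alternatives (blue dashes). The dashes lie on or near the black points, several of them by construction, and the triangles for Fech, Hbb-b1, Cpox and the first Alad probe fall within 2-fold.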

How the data were processed

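RNA of LSK cells was measured on 2 Agilent 1-colour arrays, both from 1 slide and 1 scan. The authors deposited scanner files made, per the submitters' processing notes, with Agilent Feature Extraction 11.5.1.1, which hold intensities corrected for background within the array. They also deposited a table whose columns equal these intensities times 1 constant for each array (log2 factors of 3.48 and 3.35). From log2 intensity, the array's 75th percentile was subtracted (controls left out). Spots with an outlier flag on either array were left out (314 of 59305), and the remaining spots of each probe were averaged on the log2 scale. Both arrays had 0 saturated spots. Probes were named by transcript identifier through a RefSeq table of GRCm38.p6, which named 53.7% of the spots. Where 1 probe stands for a gene, it is the one with the highest mean log2 signal.

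The 9 genes and all lists were chosen with earlier results of these data known. Within that, every probe of the 9 genes is given, and of the lists the counts, the genes past 2-fold, those measured on 1 array only and the brightest. Some genes first listed are not reported here and stand in no count of the lists. Other listed genes named are examples chosen after their values were seen. The alternatives were normexp, quantile normalization, centring on the median ratio, loess, the authors' table, no filter on dim probes, a floor for dim signals, outlier spots kept and the mean over a gene's probes. Steps were tested on simulated data. Python 3.11.15, numpy 2.4.6, pandas 2.3.3, R 4.3.3 and limma 3.58.1 were used.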

Additional observations from a re-analysis of the deposited data

How the results depend on the processing

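With 1 array per condition, leaving out a replicate was not possible. No paired analysis was possible because a single array stands for each condition and no test was run. Under normexp, run on the median spot intensity with an offset of 50, the probes of the globin and heme synthesis genes at least 2-fold higher went from 5 to 2 and those at least 2-fold lower from 1 to 0, and the median log2 ratio of the 9 genes went from 1.02 to 0.67. This alternative changes the background correction, the input signal and the offset together, and which of them moved the values was not tested. Fech came to 0.99, Hbb-b1 to 0.74 and Cpox to 0.67. Of the 32506 probes measured on both arrays, 2914 passed 2-fold upwards and 2965 downwards, beside 1065 and 1061 of the same probes under normexp. With dim probes kept, 6482 and 6424 passed it, of a larger set of 55661 probes. Under the other 7 alternatives the counts for these genes were 5 and 1 each time, and the median over the 9 genes lay between 1.007 and 1.041. Much of this was fixed beforehand. The 10 measured probes were detected and had no outlier flag, so no filter, the floor and outlier spots kept left their ratios unchanged. Centring and the authors' table added 1 constant to every ratio (0.02 and -0.01). Only normexp, quantile normalization and loess could move single probes apart. Of 80 log2 ratios of single probes under 8 alternatives, 79 kept their sign, the exception being Uros at -0.03 under normexp, and 75 moved by less than the spot error. Many of the 80 could not move by more than such a constant, so these counts are no measure of stability. The 5 that moved by more all did so under normexp. The median over all probes moved by more than 0.1 on the log2 scale under 1 alternative, the floor for dim signals, by -0.12. That median covers 55661 probes, dim ones included, instead of 32506. Probes dim on both arrays there share 1 ratio set by the floors, so the move is not one of measured values. Signal over background limits Uros most, with 1 of its 2 probes measured on neither array.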
